A study of Mus musculus with 4 samples.

Results

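The genes that write, copy, remove or guard DNA methylation were examined in mouse fetal oocytes whose mothers were on a normal diet (ND) or on a high-fat one (HFD). The set was chosen by gene symbol and holds 10 of the 55401 genes counted. They are Dnmt1 and Uhrf1 for maintenance, Dnmt3a, Dnmt3b and Dnmt3l for de novo methylation, Tet1, Tet2, Tet3 and Tdg for removal, and Dppa3 for protection. Both groups were fetuses of female ICR mice, an outbred stock, fed ND or HFD for 4 months and then mated with males on ND. At E18.5, late in gestation, ovarian cells positive for the surface marker SSEA-1 were sorted, RNA of pooled oocytes from several fetuses was amplified with SMART-Seq2, and 2 libraries per diet were sequenced. Neither the labels nor the methods say whether the pools of one diet came from separate mothers, so each p-value measures the spread between these pools. The bisulfite libraries and the other feeding groups were not analysed here.

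DNA methylation in mammals is a methyl group on cytosine, mostly where a C is followed by a G (a CpG). DNMT1 copies the mark onto the new strand after replication and is brought there by UHRF1, which binds CpGs that carry it on one strand. DNMT3A and DNMT3B place the mark on unmethylated DNA, and DNMT3L is a cofactor without activity of its own. TET enzymes oxidize the methyl group, and TDG excises the most oxidized forms, after which base excision repair restores plain cytosine. DPPA3, also called Stella or PGC7, is a maternal factor known for guarding methylation in the zygote and for keeping UHRF1 in check in oocytes. Fetal oocytes have lost most of their methylation, and in mice it is placed anew after birth, while oocytes grow.

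RefSeq start sites on GRCm38.p6 were listed for 9 of the genes, 16 sites in all. Dnmt1 has several of them, and oocytes are known to use a first exon of their own, so the letters upstream of its 2 most upstream sites are given to show what the counts cannot separate. Counts were made per gene and sum over all first exons. The other sequences belong to Uhrf1, the partner of Dnmt1, and to Dnmt3a and Tet2, which had the widest spread within a diet. Each is the 100 bases before a start site, 5′ to 3′ on the gene's strand, with CpGs in capitals.
Dnmt1, outermost site, chr9:20959889-20959988, minus strand: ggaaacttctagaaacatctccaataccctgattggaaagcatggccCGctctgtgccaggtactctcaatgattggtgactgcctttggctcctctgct
Dnmt1, second site, chr9:20952980-20953079, minus strand: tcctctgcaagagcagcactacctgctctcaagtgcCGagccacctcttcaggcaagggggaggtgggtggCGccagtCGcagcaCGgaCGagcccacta
Uhrf1, chr17:56304213-56304312, plus strand: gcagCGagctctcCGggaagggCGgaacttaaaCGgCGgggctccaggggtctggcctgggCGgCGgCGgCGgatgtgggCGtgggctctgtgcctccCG
Dnmt3a, chr12:3806880-3806979, plus strand: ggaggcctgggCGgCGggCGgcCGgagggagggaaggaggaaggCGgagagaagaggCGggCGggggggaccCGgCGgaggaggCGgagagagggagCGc
Tet2, chr3:133544391-133544490, minus strand: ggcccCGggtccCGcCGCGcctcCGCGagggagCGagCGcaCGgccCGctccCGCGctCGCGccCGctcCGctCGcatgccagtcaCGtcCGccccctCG

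CpGs were counted on the 250 bases before each site, where the median over 32851 RefSeq promoters was 6. The outermost Dnmt1 site had 2, a number reached or passed by 81.2% of promoters, and the second site had 7, reached by 46.3%. Another Dnmt1 site, whose upstream bases lie within an exon of another transcript, had 26, reached by 9.59%. The promoters of Uhrf1 and Dnmt3a printed above had 30 and 38 CpGs, reached by 5.94% and 1.88% of promoters. The Tet2 promoter was among the densest of the genome with 51, reached by 0.0670%. These are properties of the reference sequence, and the methylation of these windows was not measured here.

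The 4 libraries held 8223255 and 7815015 counted reads for ND and 6456825 and 5723605 for HFD, and 37836 to 43219 genes had at least 1 read. A count of 3 corresponded to 0.365 to 0.524 CPM (read counts relative to the library total). Reads carry no molecular identifiers, so such floors cover counting error only. Background was set per library from the reads per kilobase on 1135 olfactory receptor genes, at their 99th percentile, which was 1.03, 1.15, 1.15 and 2.19 RPKM (CPM per kilobase of exon) in ND replicates 1 and 2 and HFD replicates 1 and 2. Between 80.2% and 96.0% of these receptor genes had a read.

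Markers of germ cells were present in all 4 libraries but varied widely. Of 8 markers, 8, 6, 6 and 5 were above background in ND replicates 1 and 2 and HFD replicates 1 and 2, with summed levels of 2065, 3815, 3486 and 1513 CPM. Ddx4, the germ cell RNA helicase VASA, had 49 and 97 counts under ND, and 5 and 14 under HFD, below background. Dazl, an RNA-binding protein of germ cells, was also lower under HFD, with 14247 and 29465 counts against 2926 and 49. Others of the list went the opposite way, such as Sycp1 of the synaptonemal complex, with 36 and 48 counts against 9038 and 7978, and Figla, an oocyte transcription factor, with 8 and 13 against 3943 and 296. These 4 were chosen after their values were seen. Stromal markers, 6 genes, summed to 1643, 42.6, 1570 and 7673 CPM in the same order, pregranulosa markers, 7 genes, to 26.5, 400.0, 10.8 and 1149 CPM, and endothelial markers, 4 genes, to 15.2, 66.4, 696 and 25.3 CPM. Of the 4 blood markers the hemoglobin genes Hbb-bs and Hba-a1 were above background in ND replicate 1 alone, and the list summed to 1619 CPM there and to 6.40 to 15.025 CPM elsewhere. Macrophage markers, 4 genes, summed to 2.94 to 21.5 CPM, with C1qa at 0 in ND replicate 1 and Lyz2 at 0 in ND replicate 2. Proliferation genes, 6 in number, summed to 834, 86.1, 1154 and 62.2 CPM. Single genes made most of some sums. Examples are Amhr2 of the pregranulosa list with 1113 CPM in HFD replicate 2, and in HFD replicate 1 endothelial Kdr with 681 CPM and the proliferation gene Top2a with 1091 CPM. In pooled RNA, fewer cells of a type and less RNA per cell cannot be told apart.

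Of the 10 genes, Dnmt1 and Dppa3 were above background in every library, Uhrf1 in 3, Dnmt3a in 2 and Tet2 in 1. Dnmt3b, Dnmt3l, Tet1, Tet3 and Tdg were above background in none, so their differences concern levels that olfactory receptor genes also reach. This came to 14 of 40 pairs of gene and library, or 5, 2, 3 and 4 genes in ND replicates 1 and 2 and HFD replicates 1 and 2. Among all 21897 protein-coding genes the share above background was 24.9%, 22.1%, 13.3% and 15.2% in the same libraries.

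**Figure D1:**
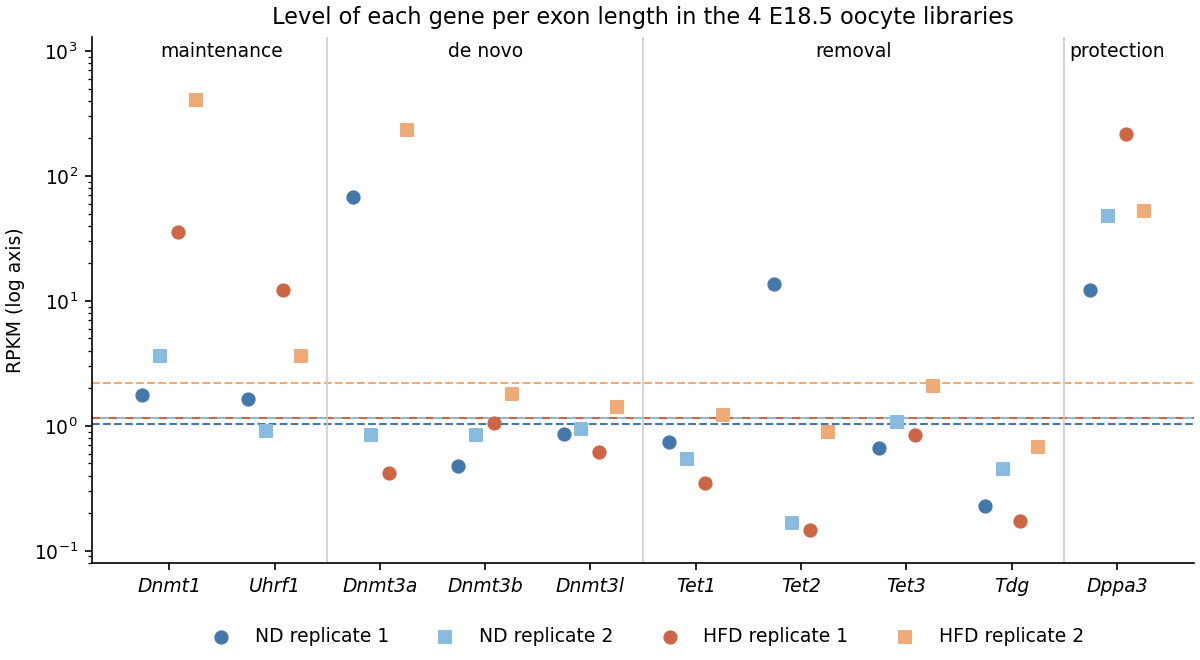
Level of each of the 10 genes in RPKM (log axis) in the 2 ND libraries (blue) and the 2 HFD libraries (orange), grouped by role. Dashed lines in the colour of each library mark its background limit, 1.03 to 2.19 RPKM, and the lines of ND replicate 2 and HFD replicate 1 coincide. Dnmt1 and Dppa3 lie above the lines in all libraries, Dnmt3a in ND replicate 1 and HFD replicate 2, and Tet2 in ND replicate 1.

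The maintenance genes were higher in both HFD libraries than in both ND libraries. Dnmt1 (ENSMUSG00000004099.16, chr9:20907209-20959888, minus strand, GRCm38) was counted 107 and 210 times under ND against 1691 and 17242 times under HFD. In CPM this was 13.01 and 26.9 against 262 and 3012. The groups did not overlap, and the HFD libraries lay 11.5-fold apart from each other, with HFD replicate 2 far above the rest.

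The mean level of Dnmt1 was 19.9 CPM ± 9.80 (SD, n = 2) in ND and 1637 CPM ± 1945 (SD, n = 2) in HFD, a ratio of means of 82.1. In edgeR's quasi-likelihood test across 19335 genes the log2 fold change of HFD over ND was 5.86 ± 2.27 (SE), with an adjusted p = 0.406. The unadjusted edgeR p was 0.0460, and 1 of the 10 genes, Dnmt1, was under 0.05 with the HFD level higher, against 4.82% of all genes tested. DESeq2 on all genes gave 5.78 ± 1.31 and an adjusted p = 0.000121, and limma-voom an adjusted p = 0.817, the lowest and the highest of the alternatives. With 1 library left out, the edgeR log2 fold change stayed between 4.19, without HFD replicate 2, and 6.49, without HFD replicate 1. HFD replicate 2 was also the library with the highest stromal and pregranulosa sums, 7673 and 1149 CPM, and HFD replicate 1 had the highest endothelial sum, 696 CPM. Amhr2 alone made 1113 CPM of that pregranulosa sum, and Kdr alone made 681 CPM of that endothelial sum. The stromal marker Nr2f2, at 167 and 10.1 CPM under ND and 623 and 639 CPM under HFD, was higher in both HFD libraries, as Dnmt1 was. Tcf21 of the same list and the germ cell markers Sycp1 and Figla were also higher, against 13.9% of all genes tested with that order. The rest of both lists, Col1a1 and Col3a1 among them, overlapped between the diets in CPM, except Dazl and Ddx4, which were lower under HFD. The part of these markers in the Dnmt1 difference was not tested.

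Per exon length Dnmt1 stood at 1.76 and 3.64 RPKM under ND and at 35.5 and 408 RPKM under HFD. Among 21897 protein-coding genes that was rank 2495 and 1367 in ND and rank 1154 and 137 in HFD. Its level was low but above background under ND, and among the more abundant messages in HFD replicate 2. The 1 gene that overlaps it, the microRNA gene Mir7081, had 2 counts in HFD replicate 1 and 0 elsewhere.

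Uhrf1 (ENSMUSG00000001228.14, chr17:56303321-56323486, plus strand) had 57 and 30 counts in ND and 333 and 89 counts in HFD, or 6.93 and 3.84 CPM against 51.6 and 15.5 CPM. The groups did not overlap, and the higher value was in HFD replicate 1, not in the library where Dnmt1 peaked. Means were 5.39 CPM ± 2.19 (SD, n = 2) in ND and 33.6 CPM ± 25.5 (SD, n = 2) in HFD. The log2 fold change was 2.95 ± 1.23 (SE), with an adjusted p = 0.406 by edgeR, 0.0655 by DESeq2 and at most 0.817 over the alternatives. Without HFD replicate 1 it dropped to 0.82. That library also had the highest endothelial and proliferation sums, 696 CPM against 15.2 to 66.4 and 1154 CPM against 62.2 to 834. Kdr alone made 681 CPM of the former, and Top2a alone made 1091 CPM of the latter. Of the other proliferation genes, Mki67, Pcna and Mcm5 were lower there than in both ND libraries, and Ccnb1 and Mcm2 lay between these. The part of these markers in the Uhrf1 difference was not tested. In ND replicate 2 Uhrf1 was at 0.901 RPKM, under the background limit.

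The 3 protein-coding genes named next followed Dnmt1 most closely over the 4 libraries, by the Euclidean distance of centred log2 CPM among 15805 such genes. Lmo7, which encodes a LIM domain protein of cell junctions, was at a distance of 0.33, with 40 and 95 counts in ND and 636 and 8568 in HFD. Dnajc10, an endoplasmic reticulum disulfide reductase, was at 0.39, with 34 and 47 counts against 442 and 5088. Ybx2, the germ cell Y-box protein that binds stored mRNA, was at 0.65, with 19 and 23 counts against 355 and 3131. All of them had the same order of libraries as Dnmt1, which is no separate finding, since they were picked for closeness to its values there. Within the methylation set the closest were Dnmt3b, at rank 1354 and distance 4.89, and Uhrf1, at rank 1723 and distance 5.02.

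The de novo genes had no common order between the diets. Dnmt3a (ENSMUSG00000020661.15, chr12:3806007-3914443, plus strand) was counted 9334 and 109 times under ND, and 45 and 22103 times under HFD. In CPM this was 1135 and 13.9 against 6.97 and 3862. It was abundant in ND replicate 1 and HFD replicate 2 and under the background limit in the other 2 libraries, and the ND values lay inside the HFD range. The ND libraries differed 81.4-fold and the HFD libraries 554-fold.

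The edgeR log2 fold change of Dnmt3a was 1.20 ± 2.96 (SE), with an adjusted p = 0.927. Leaving out HFD replicate 2 turned it to -5.80, and leaving out ND replicate 1 raised it to 6.33. Of the 10 genes, 2 were over 10-fold apart within ND, Dnmt3a and Tet2, and 2 within HFD, Dnmt1 and Dnmt3a, against 11.7% and 17.4% of all genes tested. The antisense gene Dnmt3aos had 7, 6, 3 and 12 counts, and the pseudogene Dnmt3a-ps1 had 0, 1, 3 and 6 counts. Whether counting used strand is not given in the sources used here, so reads of overlapping antisense pairs cannot be told apart. The stromal marker sum was also highest in HFD replicate 2 and stood at 1643, 42.6, 1570 and 7673 CPM over the libraries, and its part in the Dnmt3a values was not tested.

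Dnmt3b (chr2:153649450-153687730, plus strand) had 20 and 34 counts under ND and 35 and 53 under HFD, or 2.43, 4.35, 5.42 and 9.26 CPM. The HFD libraries were the higher ones, without overlap, but none passed the background limit. Its log2 fold change was 0.99 ± 0.52 (SE), with an adjusted p = 0.437 by edgeR, and lay between 0.53 and 1.497 with 1 library left out. DESeq2 gave it no adjusted p. The antisense gene Dnmt3bos, which overlaps its start, had 8, 9, 4 and 8 counts.

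Dnmt3l (chr10:78041947-78063622, plus strand) had 21, 22, 12 and 24 counts, or 2.55, 2.82, 1.86 and 4.19 CPM. The ND values lay between the HFD values, and all were within the range of the receptor genes. The log2 fold change was -0.01 ± 0.34 (SE), with an adjusted p = 0.998 by edgeR. Aire, an overlapping gene on the other strand that is best known from thymic epithelium, had 15, 2, 21 and 48 counts, and the pseudogene Dnmt3l-ps1 had 1, 0, 13 and 1.

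Among the removal genes, Tet2 was the only one above background in any library. Tet2 (ENSMUSG00000040943.12, chr3:133463679-133545139, minus strand) was counted 1908 and 22 times under ND, and 16 and 86 times under HFD, or 232 and 2.82 CPM against 2.48 and 15.03 CPM. The high value came from ND replicate 1 alone, while ND replicate 2 lay between the HFD libraries. Means were 117 CPM ± 162 (SD, n = 2) in ND and 8.75 CPM ± 8.87 (SD, n = 2) in HFD. The log2 fold change was -4.08 ± 2.14 (SE), with an adjusted p = 0.442 by edgeR. DESeq2 called Tet2 lower in HFD, with an adjusted p = 0.0254, and adjusted p over the alternatives ran from 0.0254 to 0.897. Without ND replicate 1 the sign turned, to 1.09. ND replicate 1 was also the library with hemoglobin messages, 7350 counts of Hbb-bs and 5879 of Hba-a1, and their part in the Tet2 value was not tested. The antisense gene Gm42567 at the start of Tet2 had 5, 4, 6 and 0 counts.

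Tet1 (chr10:62804570-62908996, minus strand) had 95, 65, 35 and 107 counts, or 11.6, 8.32, 5.42 and 18.7 CPM, with ND inside the range of HFD. Tet3 (chr6:83362373-83459084, minus strand) had 91, 140, 91 and 198 counts, or 11.1, 17.9, 14.1 and 34.6 CPM, with overlap. Tdg (chr10:82629828-82650799, plus strand) had 10, 19, 6 and 21 counts, or 1.22, 2.43, 0.929 and 3.67 CPM, again with ND inside HFD. These messages stayed at or under 2.07 RPKM, the value of Tet3 in HFD replicate 2, where the limit was 2.19 RPKM.

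The log2 fold changes of the 3 genes were small beside their errors. They were 0.01 ± 0.61 (SE) for Tet1, 0.54 ± 0.76 for Tet3 and 0.01 ± 0.62 for Tdg, with an adjusted p = 0.998, 0.842 and 0.998 by edgeR. With 1 library left out, Tet1 lay between -0.36 and 0.19, Tet3 between 0.11 and 0.94 and Tdg between -0.53 and 0.58. Tet3 is overlapped by 5430434F05Rik, with 11, 13, 12 and 35 counts, by B230319C09Rik on the other strand, with 3, 23, 12 and 20, and by Mir6374, with 4, 2, 1 and 1. Tet1 is overlapped by Gm48353, with 8, 25, 8 and 10 counts, and by Gm26479, with 0, 1, 0 and 6. Glt8d2 overlaps the end of Tdg on the other strand and had 19, 33, 15 and 23 counts, more than Tdg in every library, and the pseudogene Tdg-ps had 1, 6, 2 and 5.

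Dppa3 (ENSMUSG00000046323.8, chr6:122626410-122630272, plus strand) was counted 89 and 336 times under ND, and 1238 and 269 times under HFD, or 10.8 and 43.0 CPM against 192 and 47.0 CPM. The HFD libraries were higher without overlap by CPM, although ND replicate 2 and HFD replicate 2 were close. After TMM scaling the values were 10.6 and 45.7 CPM against 277 and 31.2 CPM, and the groups overlapped. Means were 26.9 CPM ± 22.7 (SD, n = 2) in ND and 119 CPM ± 102 (SD, n = 2) in HFD. The log2 fold change was 2.44 ± 1.69 (SE), with an adjusted p = 0.583 by edgeR, 0.174 by DESeq2 and at most 0.991 over the alternatives, and it dropped to 0.04 without HFD replicate 1. With a short mRNA, Dppa3 ranked high per exon length, at 12.1 and 48.2 RPKM in ND and 215 and 52.7 RPKM in HFD, rank 1371, 592, 313 and 574 among protein-coding genes. Its pseudogene Dppa3-ps had 5, 0, 0 and 1 counts.

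Over the set, 8 genes had a log2 fold change above 0 and 2 below, with a median of 0.76 against 0.03 over all genes tested. Scaled by library size alone, the median over all genes was 0.21. Of the 8 genes, Tet1 and Tdg stood at 0.01 ± 0.61 and 0.01 ± 0.62 (SE), and these, Dnmt3b and Tet3 were above background in no library. Of the 2 genes below 0, Dnmt3l stood at -0.01 ± 0.34 and was also above background in none. The share of all genes tested with a value above 0 was not counted. By edgeR 0 of the 10 genes passed an adjusted p under 0.05 with a fold change over 1.5, and 0 of 19335 genes did, which is 0%. The smallest adjusted p of any gene was 0.406. Without adjustment, 2171 genes had a p under 0.05 by edgeR and 750 by limma-voom, the latter including 0 of the 10. DESeq2 on all genes called 2 of the 7 genes for which it gave an adjusted p, Dnmt1 higher and Tet2 lower, against 2539 of 5601 genes, or 45.3%.

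Both HFD libraries exceeded both ND libraries in CPM for 4 of the 10 genes (Dnmt1, Uhrf1, Dnmt3b and Dppa3), against 13.9% of all genes tested. In TMM-scaled CPM it was again 4 genes, with Tet3 in place of Dppa3, against 16.1%. No gene of the set had both HFD libraries below both ND libraries in CPM, against 13.4% of all genes.

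**Figure D2:**
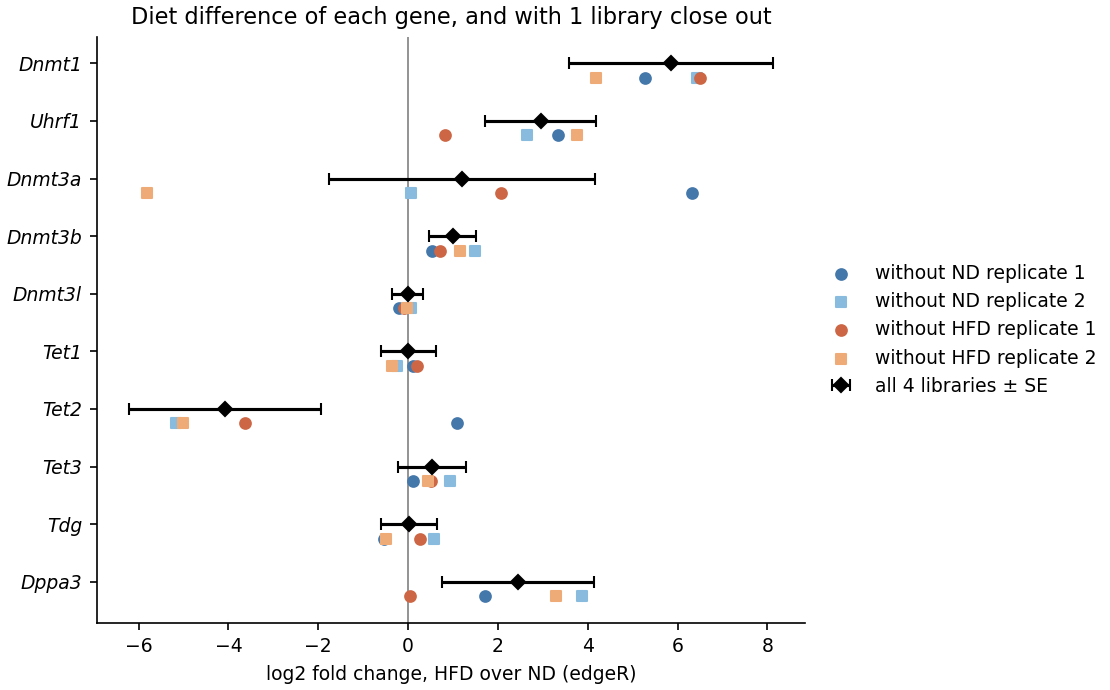
Log2 fold change of HFD over ND from edgeR for the 10 genes. Black diamonds and bars are the value of all 4 libraries ± SE, and coloured points are the values with the named library left out. Dnmt1 stays at 4.19 or above, while Dnmt3a runs from -5.80 to 6.33 and Tet2 from -5.16 to 1.09.

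The classes were then compared as summed levels within each library, with no test of the sums. Maintenance summed to 19.9 and 30.7 CPM under ND and to 313 and 3028 CPM under HFD, without overlap, with means of 25.3 CPM ± 7.61 (SD, n = 2) and 1671 CPM ± 1920 (SD, n = 2). De novo methylation summed to 1140 and 21.1 CPM against 14.2 and 3875 CPM, and removal to 256 and 31.5 CPM against 22.9 and 72.0 CPM. Both of these overlapped between the diets. On the log2 scale the ratio of the HFD mean to the ND mean was 6.04 for maintenance, 1.74 for de novo methylation and -1.60 for removal. Without HFD replicate 2 the de novo value turned to -5.35, and without ND replicate 1 the removal value turned to 0.59, while maintenance remained at 3.63 without HFD replicate 2.

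A single gene carried most of each sum where the sum was high. Dnmt1 made 65.2% and 87.5% of the maintenance CPM under ND and 83.5% and 99.5% under HFD. Dnmt3a made 99.6% of the de novo sum in ND replicate 1 and 99.7% in HFD replicate 2, and 66.1% and 48.9% in ND replicate 2 and HFD replicate 1. Tet2 made 90.7% of removal in ND replicate 1 and 8.94% to 20.9% elsewhere, where Tet3 was the largest part at 48.1% to 61.5%.

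The ratio of maintenance to removal is given as a description, since every removal gene was under the background limit in all libraries but ND replicate 1. By CPM it was 0.0779 and 0.976 under ND and 13.7 and 42.1 under HFD, and 0.220 and 2.04 against 31.4 and 84.9 by RPKM, which counts each gene per exon length. The values did not overlap between the diets, but 3 of the 4 rest on a sum at background level. The ratio of maintenance to de novo methylation overlapped, at 0.0175 and 1.45 against 22.0 and 0.781 by CPM. De novo over removal was 4.46 and 0.671 against 0.622 and 53.8 by CPM, and also overlapped, with the same limit on its denominator.

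**Figure D3:**
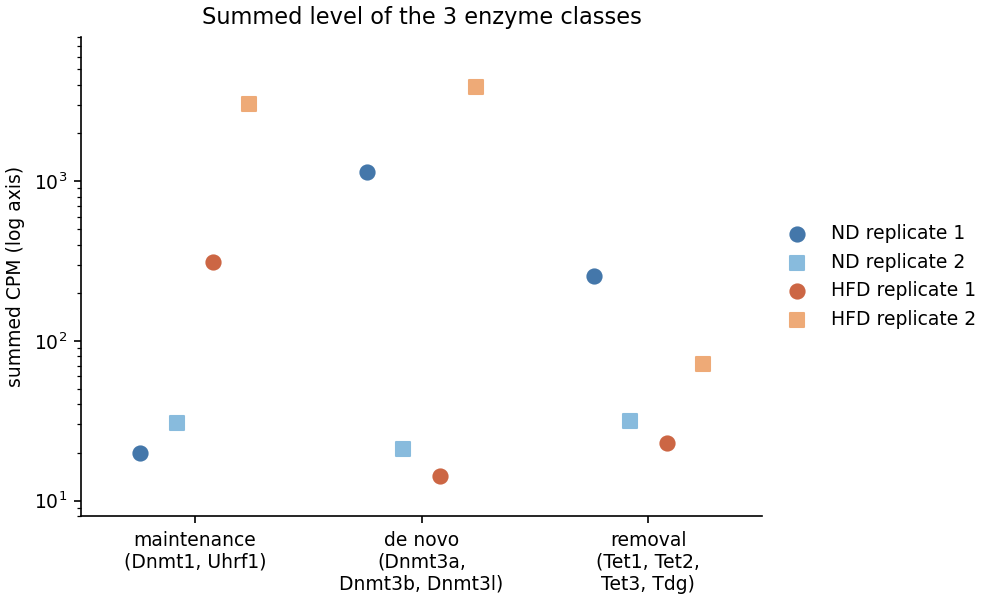
Summed CPM (log axis) of the maintenance, de novo and removal genes in the 2 ND libraries (blue) and the 2 HFD libraries (orange), 1 point a library. Maintenance is at 19.9 and 30.7 CPM in ND and at 313 and 3028 CPM in HFD, and the other classes overlap between the diets.

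Genes that work with these enzymes were examined as 49 genes in 6 lists, of which 45 were tested. There were 18 with a higher and 27 with a lower fitted level in HFD, with a median log2 fold change of -0.30. By edgeR 0 passed the adjusted test, and 1 higher and 6 lower had an unadjusted p under 0.05, against 4.82% and 6.41% of all genes tested. DESeq2 called 6 higher and 5 lower of the 21 genes for which it gave an adjusted p, against 45.3% of all genes with one. Only 4 were above background in all libraries and 15 in none. The named genes of each list are the 2 with the smallest p and the one with the highest mean level.

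The maintenance partners had 2 genes higher and 6 lower of 8, with a median of -1.97 against 0.03 over all genes tested. Both HFD libraries were below both ND libraries in CPM for 1 of them, Pcna, and above for 1, Usp7, against 13.4% and 13.9% of all genes. After TMM scaling Usp7 overlapped between the diets, while Cdca7 and Cdca7l joined Pcna as lower. Several signs rested on 1 library. Without ND replicate 1, Uhrf2 turned to 0.51 and Hdac2 shrank to -0.19, and without ND replicate 2, Hdac1 turned to 4.72. Usp7 turned to -0.37 without HFD replicate 1. Pcna, the clamp that ties DNMT1 to the replication fork, had 1129 and 83 counts in ND and 5 and 4 in HFD, a log2 fold change of -6.52 ± 1.73 (SE), with an adjusted p = 0.406 by edgeR and 0.000104 by DESeq2. It was above background in both ND libraries and in neither HFD library, and stayed between -7.42 and -3.88 with 1 library left out. Cdca7, which brings the remodeller HELLS to chromatin, had 3831 and 32 counts against 14 and 25, and the value of -6.25 ± 2.46 shrank to -0.60 without ND replicate 1. Hells itself had 371 and 184 counts against 27 and 9111, at 3.95 ± 2.56, which turned to -2.52 without HFD replicate 2.

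Of the genes that direct de novo methylation, 2 were higher and 4 lower of 6, with a median of -0.72. Kdm1b, a histone H3K4 demethylase needed for imprints in oocytes, had 60 and 43 counts under ND against 21 and 9236 under HFD. Setd2, which places the H3K36 trimethylation that guides methylation of transcribed DNA in oocytes, had 49 and 102 against 6455 and 36. Each was high in 1 HFD library alone. Their values of 6.38 ± 2.86 (SE) and 6.19 ± 2.998 turned to -0.47 without HFD replicate 2 and to -1.34 without HFD replicate 1, and the adjusted p by edgeR was 0.406 and 0.414.

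Base excision repair, which follows TET and TDG, had 7 genes higher and 4 lower of the 11 tested among 15, with a median of 0.19, and 10 of the 15 were above background in no library. Smug1, a uracil glycosylase, had 53 and 53 counts in ND and 10 and 28 in HFD (-1.29 ± 0.44, SE), above background in ND replicate 1 alone. Neil2, a glycosylase for oxidized bases, had 9 and 15 counts against 15 and 60 (1.73 ± 0.60), above background in no library. Parp1, the sensor of DNA breaks, had 60, 70, 32 and 7761 counts, high in HFD replicate 2 alone, and its 5.78 ± 2.64 turned to -0.22 without that library. For all 3 the adjusted p by edgeR was 0.406.

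Genes for readers of the mark or for proteins that work with them had 1 higher and 6 lower of 7, with a median of -0.30. Trim28, the corepressor also called KAP1 that keeps imprints together with ZFP57, had 1598 and 187 counts in ND and 22 and 60 in HFD. Its log2 fold change was -4.18 ± 1.51 (SE), with an adjusted p = 0.406 by edgeR and 0.00523 by DESeq2, and stayed between -5.07 and -2.17 with 1 library left out. Zfp57 had 42 and 97 counts against 3 and 36 (-1.88 ± 1.11), with overlap between the diets.

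Genes that supply the methyl donor S-adenosylmethionine had 4 higher and 6 lower of 10, with a median of -0.17. Shmt2, the mitochondrial serine hydroxymethyltransferase, had 27 and 25 counts in ND and 6 and 12 in HFD (-1.26 ± 0.35, SE), above background in ND replicate 1 alone.

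For the supply or partners of TET enzymes, 2 of 3 genes were higher and 1 lower, with a median of 1.05. Idh1, which makes the TET cosubstrate alpha-ketoglutarate in the cytosol, had 31 and 29 counts against 9 and 13 (-1.11 ± 0.36, SE). It was above background in both ND libraries and in neither HFD library. Idh2, its mitochondrial counterpart, had 742, 42, 9273 and 51 counts, and its 4.45 ± 3.10 turned to -3.10 without HFD replicate 1. Ogt, the O-GlcNAc transferase that binds TET proteins, had 3750, 50, 1697 and 4840 counts, low in ND replicate 2 alone (1.05 ± 2.19).

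**Figure D4:**
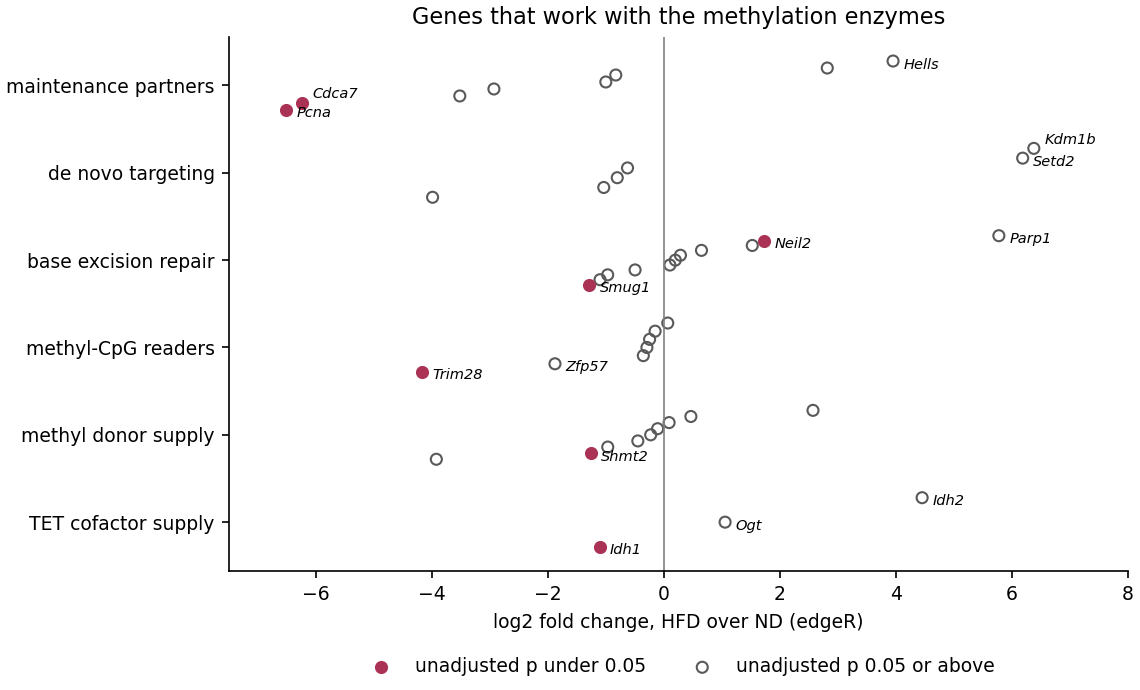
Log2 fold change of HFD over ND from edgeR for the tested partner genes, 1 row a list and 1 point a gene, with 1 gene left out. Filled points have an unadjusted p under 0.05. They are 6 genes on the lower side, with Pcna at -6.52, Cdca7 at -6.25 and Trim28 at -4.18, and 1 on the higher side, Neil2 at 1.73. Neil2 was above background in no library, and Smug1 and Shmt2 on the lower side were so in ND replicate 1 alone.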

How the data were processed

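RNA-seq counts per gene were used as deposited, whole numbers without normalization, in 2 ND and 2 HFD libraries. Before depositing, the authors used Trim Galore for trimming, HISAT2 for alignment to mm10 and featureCounts for counting. The annotation release and the treatment of reads with several alignments are not given in the sources used here. GENCODE M21 gave gene names, coordinates and exon lengths and listed 55141 of 55401 identifiers. In R 4.3.3, edgeR 4.0.16 was run with TMM factors (1.02 and 0.940 for ND, 0.692 and 1.51 for HFD), filterByExpr, the quasi-likelihood test on diet alone and Benjamini-Hochberg adjustment. A gene was called at an adjusted p under 0.05 and a fold change over 1.5. The SE was the absolute log2 fold change divided by √F. DESeq2 1.42.0 and limma-voom (limma 3.58.1) were alternatives, with other scalings and filters, a replicate block and each library left out. The code was tested on simulated data with 8-fold changes and a fixed spread. That test does not show power or false calls at the spread found here. A gene was above background with over 3 counts and more reads per kilobase than the 99th percentile of the receptor genes. Partner genes were named by smallest p and highest mean level, and overlapping genes and pseudogenes by the annotation. The members, lists and background measure were chosen with earlier results of these data known. The values of 1 partner gene are not reported here, though the counts and median of its list include it.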

Additional observations from a re-analysis of the deposited data

How the results depend on the processing

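Over the refits of the 10 genes, 109 kept direction and side of the threshold, 3 passed it (Dnmt1 under both DESeq2 fits, at 5.78 and 5.81, and Tet2 under DESeq2 on all genes, at -4.09) and 17 turned sign. Called genes were 0 by edgeR, 34 by its legacy fit, 2539 by DESeq2 on all genes and 2102 by DESeq2 on the filterByExpr genes. Within the 10 genes DESeq2 called 2 and 1, and within the partner lists 11 and 6. In the fit on all genes that was 2 of 7 and 11 of 21 genes with an adjusted p, against 45.3% of all such genes. For the filterByExpr fit the number of genes with an adjusted p is not given here, so its counts have no share beside them. The cause of the difference between the tools was not tested. Sign turns beside those of the report were Dnmt3l at 0.18 by library size alone and 0.018 by limma-voom, Tet1 at -0.081 without a filter, -0.045 with at least 10 counts everywhere, -0.044 by DESeq2 on all genes, -0.21 by limma-voom and -0.020 with the replicate block, and Tdg at -0.016 by RLE, -0.075 without a filter and -0.058 by DESeq2 on all genes. With each library left out, the log2 fold changes ran from -5.80 to 6.33 (Dnmt3a), -0.20 to 0.068 (Dnmt3l), -0.36 to 0.19 (Tet1), -5.16 to 1.09 (Tet2) and -0.53 to 0.58 (Tdg), and the log2 class ratios from 3.63 to 6.90 (maintenance), -5.35 to 6.53 (de novo) and -2.65 to 0.59 (removal). The 14 detected pairs became 24 at the 95th percentile of receptor genes and 40 with over 3 counts alone. The deviations of same-numbered libraries from their group means had a correlation of r = 0.0112 over 19335 genes. The labels do not say whether same-numbered libraries shared a batch, and this value cannot decide it. The replicate block called 0 genes and gave Dnmt1 5.51. Tdg could not be fitted with at least 10 counts in every library. Genes below background lie at levels that olfactory receptor genes also reach, so their differences cannot be told from background here.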
